A study of Mus musculus with 6 samples.

Results

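Collagen chain genes were the subject here: all rows of the deposited expression table whose symbol reads Col, a number, a and a number. The pattern matched 34 of 15330 rows. They were sorted by the type of assembly that the chain enters: 10 fibrillar chains, 7 network chains, 7 FACIT chains (fibril-associated collagens with interrupted triple helices), 3 chains of beaded filaments, 3 transmembrane chains, 2 multiplexins and 2 others. A further 11 chain genes of the class lists, Col4a3, Col5a3, Col6a4, Col6a5, Col6a6, Col10a1, Col17a1, Col19a1, Col20a1, Col21a1 and Col28a1, were not analysed here. All 34 members passed the minimum of 10 normalized counts on average, which removed no gene of the table.

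The RNA came from micro-dissected mouse hearts at embryonic day 9.5, in 2 groups of 3 libraries. One group was wild-type. The other, H2-URI d/d, lacked on both alleles an interval of 373 kb that lies upstream of Hand2 and had been cut out with CRISPR-Cas9 in mouse embryos. Hand2 encodes a basic helix-loop-helix factor of the heart. Each group held 2 female libraries and 1 male library, all from batch 1. The labels name no Cre driver and no strain. They leave unsaid how many hearts went into a library, and p-values therefore cover only the variation among these 6 libraries, which may be technical. Hand2 itself stood at 3911, 3789 and 4407 normalized counts in wild-type hearts and at 1025, 1158 and 1163 in deletion hearts. Normalized counts are read counts divided by a size factor for each library.

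For 4 of the 6 libraries, replicates 1 and 2 of both groups, the recorded sample of the file belongs to the other group than the code in its column header. Columns were assigned by the code, which the sample titles carry. Replicate 3 of each group is not in conflict. The libraries held 25583210 to 32043595 reads, of which the collagen chain genes took 0.304% to 0.385%.

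Collagens are matrix proteins built from alpha chains that wind into a triple helix. Fibrillar chains form the banded fibrils of connective tissue, type IV chains form the sheet of basement membranes, and FACIT chains sit on the surface of fibrils. In the embryonic heart, collagens are laid down in basement membranes, in the cardiac jelly and, as mesenchyme fills them, in the cushions that become valves and septa. Many collagens need fixed combinations of chains, so partner chains are set side by side below.

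The transcripts of 4 collagen chain genes fell in the deletion hearts and those of 0 rose, at a limma adjusted p under 0.05 over all genes. The fallen genes were Col26a1, Col3a1, Col23a1 and Col8a1, and each belongs to a different class. At an unadjusted p under 0.05 there were 19 members, 7 lower and 12 higher, where 21.4% of all genes (1711 lower and 1570 higher) had such a p. In bulk hearts, fewer cells of a type and less RNA per cell cannot be told apart. Of all genes 3.05% were called, 1.5% lower and 1.55% higher, against 11.8% of the collagen chain genes. The groups did not overlap for 17 of the 34 members, 7 lower and 10 higher, or 50%, against 27.4% of all genes. The median log2 fold change was 0.11 over the members and −0.0073 over all genes. Thus 21 of the 34 stood above 0, none of them past the test, beside the 4 that fell. edgeR called 4 members lower and 0 higher, where it called 1.51% and 1.75% of all genes. DESeq2 called 5 lower and 4 higher, against 4.16% and 3.73%: Col9a2 was added below, and Col15a1, Col2a1, Col4a2 and Col4a5 above.

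**Figure D1:**
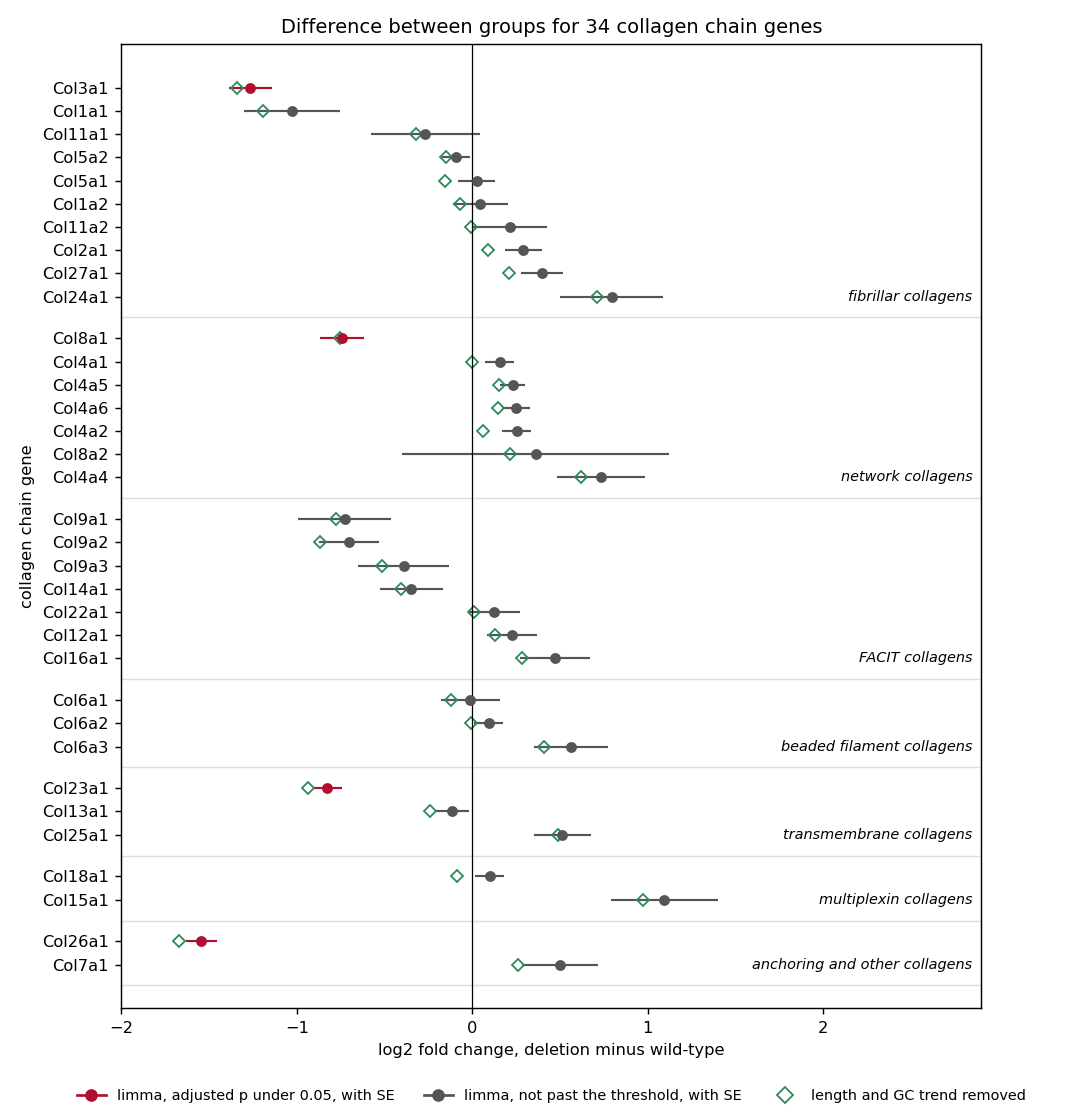
Log2 fold change (deletion minus wild-type) of the 34 collagen chain genes, grouped by class, with the SE as a bar; red points passed an adjusted p under 0.05 in limma, and green diamonds give the value corrected for transcript length and GC content. Col26a1 at −1.54, Col3a1 at −1.26, Col23a1 at −0.83 and Col8a1 at −0.74 are the red points.

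Col26a1 encodes collagen XXVI, a chain with an EMI domain and short collagenous stretches. It had 832, 794 and 728 normalized counts in the wild-type libraries and 256, 274 and 273 in deletion hearts. The deletion libraries lay close together at 34.2% of the wild-type mean, and the lowest wild-type library held more than any of them. The means were 784 ± 52.8 and 268 ± 9.87 (SD, n = 3). On the log2 scale the change was −1.54 (SE 0.09, limma adjusted p = 3.91e-05), the steepest fall among the members. Col7a1, which forms the anchoring fibrils of skin and was placed in the same class of others, had 191 ± 41.6 and 273 ± 72.3 (SD, n = 3), with overlapping groups (log2 fold change 0.50, adjusted p = 0.226, limma).

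The sequences before the start sites of the fallen genes are shown because Hand2 and its partners bind E-boxes, sites of the form CANNTG. RefSeq promoter windows on GRCm38.p6 were found for 26 of the 34 members, and Col26a1 is not among them. The 250 bases before the start are given 5′ to 3′ on the gene's strand, with each CANNTG match in capitals. The windows are chr1:45311288-45311537 on the plus strand for Col3a1, chr11:51289670-51289919 on the plus strand for Col23a1 and chr16:57754738-57754987 on the minus strand for Col8a1.
Col3a1: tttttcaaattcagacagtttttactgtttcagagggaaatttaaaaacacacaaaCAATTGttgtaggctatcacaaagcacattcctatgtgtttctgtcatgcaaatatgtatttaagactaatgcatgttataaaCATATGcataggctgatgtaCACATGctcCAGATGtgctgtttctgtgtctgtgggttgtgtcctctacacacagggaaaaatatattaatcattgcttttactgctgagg
Col23a1: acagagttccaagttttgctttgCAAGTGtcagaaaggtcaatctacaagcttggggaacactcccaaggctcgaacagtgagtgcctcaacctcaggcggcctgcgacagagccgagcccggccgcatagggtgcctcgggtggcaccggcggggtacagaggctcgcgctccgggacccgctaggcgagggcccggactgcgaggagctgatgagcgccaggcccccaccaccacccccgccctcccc
Col8a1: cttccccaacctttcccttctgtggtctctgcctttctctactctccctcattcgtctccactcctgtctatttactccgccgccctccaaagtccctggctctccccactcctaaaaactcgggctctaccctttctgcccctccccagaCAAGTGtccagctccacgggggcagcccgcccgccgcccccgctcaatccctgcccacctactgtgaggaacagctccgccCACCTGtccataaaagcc
The Col3a1 window held 4 matches, the Col8a1 window 2 and the Col23a1 window 1. CANNTG reads the same form on both strands, so each match was counted once. In the Col3a1 window the matches began 194, 111, 91 and 82 bases before the start, and the one nearest to the start reads CATCTG on the other strand. In the Col8a1 window they began at 99 and 18 bases, and in that of Col23a1 at 227 bases. CANNTG was present in 48.3% of the 29 member windows and in 66.2% of all 32851 windows of this length, and CATCTG, on either strand and itself a form of CANNTG, in 10.3% and 14.4%. A match says only that these letters are in the window, and most windows hold one.

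Among the fibrillar chains 1 of 10 fell, Col3a1, and 9 did not pass. Col3a1, whose product forms a homotrimer in distensible tissues such as vessel wall and valve, had 3931, 4668 and 3936 normalized counts in wild-type hearts and 1443, 1748 and 2061 in deletion hearts. Every deletion library lay far below every wild-type library. The deletion mean was 41.9% of the wild-type mean (log2 fold change −1.26, SE 0.12, adjusted p = 0.00126, limma).

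Col1a1 and Col1a2 encode the chains of collagen I, the main fibrillar collagen of most connective tissue. Col1a1 had 1002, 2028 and 869 normalized counts in wild-type hearts and 472, 655 and 673 in deletion hearts. Wild-type replicate 2 stood above the sum of the other two wild-type libraries, and the groups did not overlap. The log2 fold change of −1.03 (SE 0.27) missed the threshold in limma (adjusted p = 0.0749). Without wild-type replicate 2 it was −0.66 and passed (adjusted p = 0.0373), and after correction for length and GC content it was −1.19 (adjusted p = 0.0350). Its partner Col1a2 had 1387, 1925 and 1257 in wild-type hearts and 1307, 1759 and 1603 in deletion hearts, so the groups overlapped (log2 fold change 0.04, 95% interval −0.31 to 0.40).

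Col5a1 and Col5a2 encode the chains of collagen V, which starts fibrils and is built into those of collagen I. Col5a1 had 5928 ± 683 normalized counts in wild-type hearts and 6036 ± 716 in the deletion hearts (SD, n = 3), and Col5a2 had 3712 ± 269 and 3484 ± 279 (SD, n = 3). Both had overlapping groups, with 95% intervals of the log2 fold change from −0.21 to 0.26 for Col5a1 and from −0.27 to 0.09 for Col5a2. Col5a2 lies beside Col3a1 on chromosome 1.

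Col2a1, the main fibrillar collagen of cartilage, was the most abundant member per transcript length. It had 16554, 16429 and 16193 normalized counts in wild-type hearts and 20263, 23347 and 17037 in deletion hearts. The wild-type libraries hardly differed and all deletion libraries were above them, deletion replicate 3 only just. The log2 fold change of 0.29 (SE 0.11) did not pass in limma (adjusted p = 0.154), passed in DESeq2 (adjusted p = 0.0363) and was 0.09 after correction for length and GC content. For the notochord, another known source of Col2a1, the markers Noto and T were not analysed here. Of 8 listed markers of notochord and neural tube 3 were measured, Sox2, Pax6 and Shh, the last also listed for pharyngeal and foregut endoderm. They summed to 268, 52.5 and 53.1 against 176, 147 and 211 normalized counts, a sum that does not stand for the notochord alone.

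Of the minor fibrillar chains, Col27a1 (248 ± 27.3 against 326 ± 25.4 normalized counts, SD, n = 3) and Col24a1 (16.4 ± 2.56 against 29.4 ± 7.27, SD, n = 3) had no overlap between groups, with log2 fold changes of 0.40 (adjusted p = 0.0971) and 0.79 (adjusted p = 0.162) in limma. Col24a1 had the lowest level per length of all members. Col11a1, a chain of the cartilage-type collagen XI, had 409, 925 and 339 in wild-type hearts and 345, 478 and 443 in deletion hearts. Its highest value was again in wild-type replicate 2, and its log2 fold change was −0.27 with all libraries and 0.17 without that one, neither past the threshold. Col11a2 had a log2 fold change of 0.21 and overlapping groups.

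**Figure D2:**
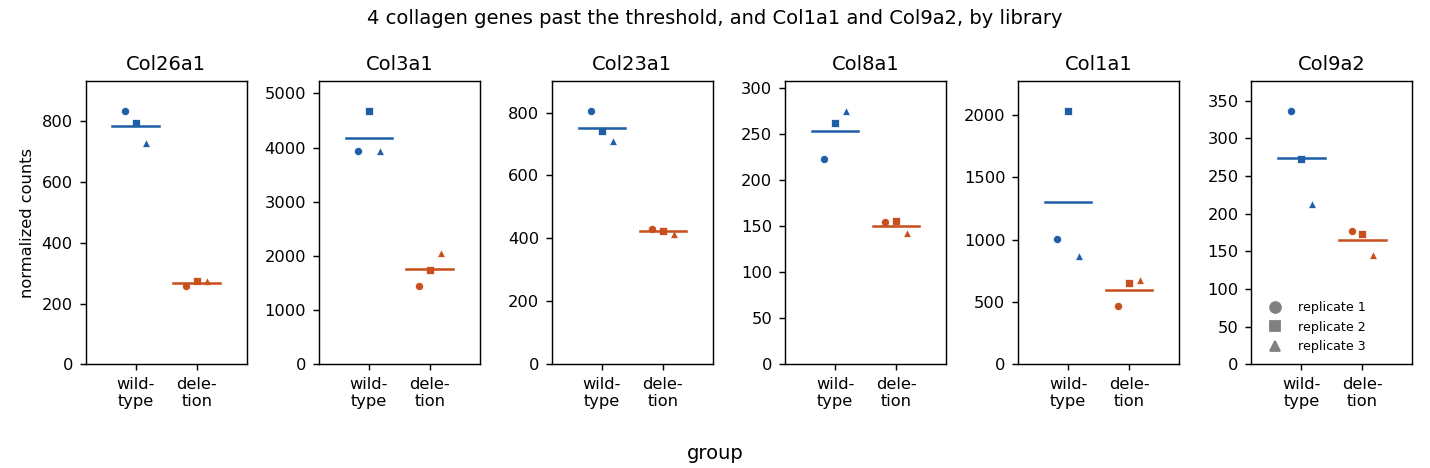
Normalized counts of the 4 collagen chain genes past the threshold and of Col1a1 and Col9a2 in each library; points are libraries, lines are group means and each axis starts at 0. The Col26a1 deletion libraries lie between 256 and 274, below the wild-type range of 728 to 832, and the Col1a1 value of 2028 in wild-type replicate 2 stands above the others of its group.

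Among the network chains 1 of 7 fell, Col8a1, and 6 did not pass. Col8a1 encodes a short chain of collagen VIII, which forms lattices in vessel walls and under the corneal endothelium. It had 222, 262 and 275 normalized counts in wild-type hearts and 154, 155 and 143 in deletion hearts, without overlap. The deletion mean was 59.5% of the wild-type mean (log2 fold change −0.74, SE 0.13, adjusted p = 0.0173, limma). This call was lost without wild-type replicate 3 (adjusted p = 0.0744), without deletion replicate 1, 2 or 3 (0.0658, 0.0824 and 0.0693) and in the 4 female libraries (0.218). Over the 22 alternatives that kept the groups its log2 fold change lay between −0.83 and −0.64. Its partner Col8a2 had 11.4, 85.4 and 7.32 in wild-type hearts and 14.8, 29.7 and 37.8 in deletion hearts. The deletion mean of Col8a2 was 79.1% of the wild-type mean while the log2 fold change was 0.36 (95% interval −1.35 to 2.07), so the sign depended on the scale and on wild-type replicate 2.

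The chains of collagen IV, the sheet-forming collagen of basement membranes, had log2 fold changes from 0.15 to 0.73. In limma 0 of 5 passed, with 0 in edgeR, 2 in DESeq2 and 4 at an unadjusted p under 0.05 (21.4% of all genes). Col4a1 had 19772, 21358 and 20722 normalized counts in wild-type hearts and 22979, 24853 and 21146 in deletion hearts, where the lowest deletion library lay below the highest of the wild-type. Exons of Col4a1 and Col4a2 overlap on opposite strands, so with the strand setting of the counting not stated their reads cannot be told apart there. The partner Col4a2 had 9481, 11129 and 10181 in wild-type hearts and 11775, 13220 and 11645 in deletion hearts, without overlap (log2 fold change 0.25, adjusted p = 0.119, limma). The pair encoded on the X chromosome also did not overlap: Col4a5 had 4683, 5096 and 5346 against 5981, 6128 and 5619 (log2 fold change 0.23, adjusted p = 0.103, limma). Col4a6 had 1686, 1938 and 1834 against 2233, 2287 and 1971 (log2 fold change 0.25, adjusted p = 0.116, limma). DESeq2 called Col4a2 and Col4a5 higher (adjusted p = 0.0405 and 0.0404). Col4a4, a chain best known from kidney basement membrane, was near the bottom of the range at 30.4 ± 4.53 against 51.8 ± 12.8 normalized counts (SD, n = 3), again without overlap (log2 fold change 0.73, adjusted p = 0.136, limma).

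These small differences moved with transcript length and GC content. Collagen transcripts are long and GC-rich: the medians were 5989 bases and 56.0% GC, against 3180 bases and 49.7% over all genes. A smooth dependence on both was then taken out of each library. All 34 members had a lower log2 fold change after this, the 21 above 0 and the 13 below 0 alike. The median over the members was −0.0088, and the values were −1.7e-04 for Col4a1, 0.06 for Col4a2, 0.15 for Col4a5, 0.14 for Col4a6 and 0.62 for Col4a4. The calls of Col26a1 (−1.67), Col3a1 (−1.34), Col23a1 (−0.94) and Col8a1 (−0.75) held, and Col1a1 and Col9a2 were called lower as well. That made 6 members lower and 0 higher, where 1.98% and 1.23% of all genes were called.

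Of the 7 FACIT chains 0 passed in limma, 0 in edgeR and 1 in DESeq2, while 3 had an unadjusted p under 0.05 (21.4% of all genes). Collagen IX, which coats the fibrils of collagen II, is made of the products of Col9a1, Col9a2 and Col9a3. Col9a2 had 336, 272 and 212 normalized counts in wild-type hearts and 177, 174 and 146 in deletion hearts. All deletion libraries were lower, with a log2 difference of −0.70 (SE 0.17, adjusted p = 0.0599 in limma, 0.00605 in DESeq2 and 0.0104 after the length and GC correction). Col9a1 had 403, 344 and 265 against 125, 257 and 252, with deletion replicate 1 far below the other libraries (log2 fold change −0.73, adjusted p = 0.157, limma). Col9a3 had 81.3 ± 13.3 against 63.8 ± 23.6 (SD, n = 3) and overlapping groups. Exons of Col9a3 overlap those of Tcfl5 on the other strand, and the strand setting of the counting is not given in the sources used here, so their reads cannot be told apart there.

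Of the FACIT chains that sit on collagen I fibrils, Col12a1 had 2233 ± 533 against 2570 ± 231 normalized counts and Col14a1 126 ± 12.9 against 99.5 ± 20.9 (SD, n = 3), both with overlap. Col16a1 (log2 fold change 0.47, adjusted p = 0.213) and Col22a1 (0.12, adjusted p = 0.663), a collagen of tissue junctions, also overlapped and did not pass in limma. Without wild-type replicate 2, Col12a1, Col16a1 and Col27a1 passed as higher.

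Among the transmembrane chains 1 of 3 fell, Col23a1. These chains cross the plasma membrane once and carry their collagenous part outside the cell. Col23a1 had 804, 741 and 708 normalized counts in wild-type hearts and 429, 424 and 414 in deletion hearts. The deletion libraries were nearly equal, at 56.2% of the wild-type mean, and did not overlap with it (log2 fold change −0.83, SE 0.08, adjusted p = 0.00139, limma). Col13a1, which is enriched at neuromuscular junctions, had 671 ± 60.7 against 618 ± 52.8 (SD, n = 3), and its groups overlapped. Col25a1, a chain found mainly in neurons, had 67.0, 83.6 and 85.1 against 109, 109 and 119, all deletion libraries higher (log2 fold change 0.51, adjusted p = 0.111, limma).

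In the multiplexin pair 0 of 2 passed in limma and edgeR and 1 in DESeq2, with 1 at an unadjusted p under 0.05 (21.4% of all genes). Col18a1, a basement membrane proteoglycan whose end yields endostatin, followed Col2a1 and Col4a1 in level per length and had 12870 ± 737 against 13812 ± 1226 normalized counts (SD, n = 3), with overlap. Col15a1, its relative in the zone under basement membranes, had 65.8, 30.2 and 33.9 in wild-type hearts and 73.9, 81.7 and 113 in deletion hearts. The lowest deletion library stood just above the highest wild-type one. Its log2 fold change of 1.09 (SE 0.30) was the largest above 0 among the members and did not pass in limma (adjusted p = 0.0819). It passed in DESeq2 (adjusted p = 0.0225) and without wild-type replicate 1, where the log2 fold change was 1.43 (adjusted p = 0.0149).

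The beaded filament chains of collagen VI, a microfibril around cells, had 0 of 3 past the threshold in limma, edgeR and DESeq2 and 1 at an unadjusted p under 0.05 (21.4% of all genes). Col6a1 had 242 ± 45.2 against 239 ± 38.0 normalized counts (SD, n = 3), and Col6a2 had 753, 745 and 649 against 744, 778 and 764. Both overlapped between groups, with 95% intervals of the log2 fold change from −0.39 to 0.36 and from −0.09 to 0.28. Col6a3, the largest of its chains, was scarce at 52.2, 56.9 and 39.4 in wild-type hearts and higher in every deletion library, at 64.4, 71.5 and 83.2 (log2 fold change 0.56, adjusted p = 0.167, limma).

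Per kilobase of the longest annotated transcript, the members spanned from 3.20 normalized counts for Col24a1 to 3586 for Col2a1. The order began with Col2a1 at 3586, Col4a1 at 3296, Col18a1 at 2384 and Col4a2 at 1742, and these 4 genes made up 69.7% of the summed level of all 34. They had log2 fold changes from 0.10 to 0.29, none past the threshold in limma. The 4 genes that fell made up 5.48% of that sum. Summed over all members the level was 88837, 98181 and 89041 normalized counts in wild-type hearts and 97398, 107735 and 90290 in deletion hearts, with overlap. Network chains together stood at 38060 ± 2031 against 43509 ± 3072 and fibrillar chains at 33933 ± 2736 against 34510 ± 4148 (SD, n = 3). Transmembrane chains stood at 1501 ± 73.5 against 1152 ± 52.9 (SD, n = 3).

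**Figure D3:**
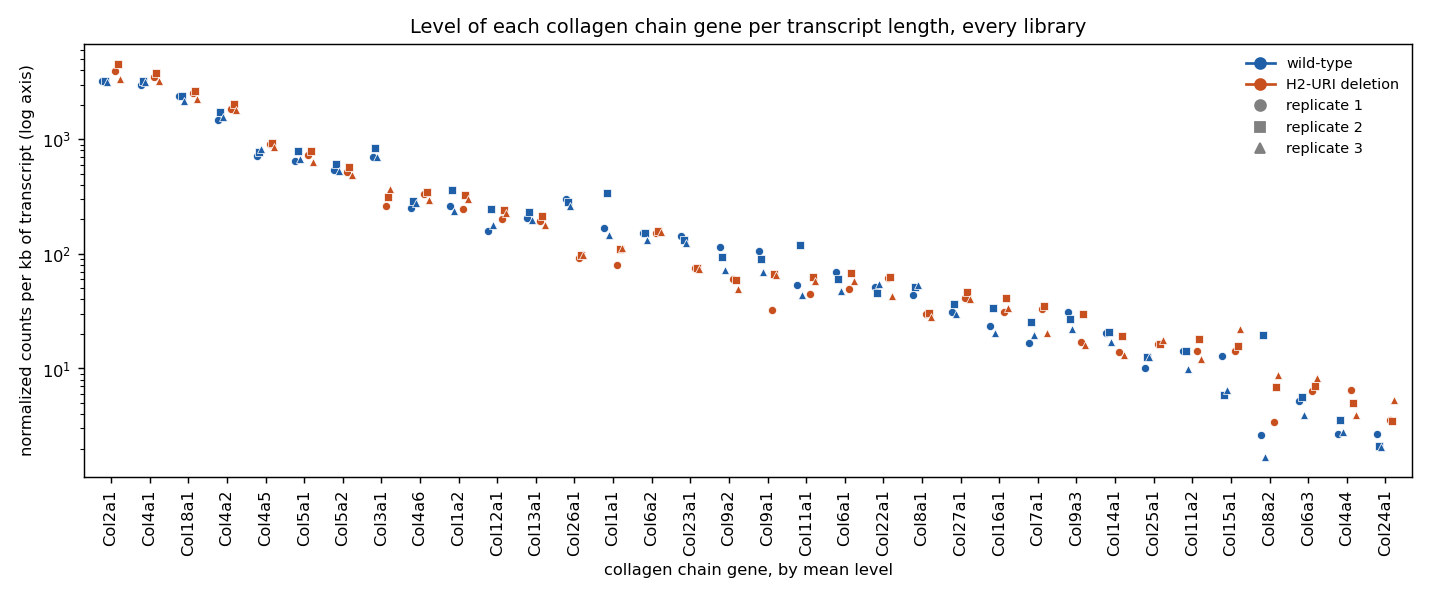
Level of each of the 34 collagen chain genes in every library, in normalized counts per kilobase of transcript on a log axis, ordered by the mean; colours are groups and shapes are replicates. Levels run from 3586 for Col2a1 to 3.20 for Col24a1. The groups separate downward for 7 genes (Col3a1, Col26a1, Col23a1, Col8a1, Col1a1, Col9a1 and Col9a2) and upward for 10, or 50% of the 34 against 27.4% of all genes.

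Pairs of chains, most of them partners in 1 trimer, were compared through the ratio of their levels per length within each library, which does not depend on the size factors. Of 14 ratios, 6 did not overlap between groups, and each of these had an exact two-sided permutation p of 0.1, the smallest that 3 against 3 allows (adjusted over the 14 ratios, p = 0.233). Each of these 6 holds a chain whose own groups did not overlap (Col1a1, Col3a1, Col6a3 or Col15a1), so the ratios largely restate those values. No share over other gene pairs was taken. The ratio of Col1a1 to Col1a2 was 0.652, 0.950 and 0.624 in wild-type hearts and 0.326, 0.336 and 0.379 in deletion hearts. Col1a1 thus stood lower relative to its partner in every deletion library, wild-type replicate 2 having the highest ratio. The ratio of Col3a1 to its chromosomal neighbour Col5a2 was 1.31, 1.38 and 1.33 against 0.504, 0.549 and 0.755, and that of Col3a1 to Col1a2 was 2.72, 2.33 and 3.01 against 1.06, 0.955 and 1.24. Neither of those is a trimer partner of Col3a1, and both ratios restate its fall.

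For the basement membrane pairs the groups overlapped. The ratio of Col4a1 to Col4a2 was 1.96 ± 0.0832 against 1.84 ± 0.0662 (SD, n = 3; exact permutation p = 0.2), and that of Col4a5 to Col4a6 was 2.82 ± 0.145 against 2.78 ± 0.101 (SD, n = 3; exact permutation p = 0.7). In the RefSeq annotation of GRCm38.p6 the start sites of Col4a1 and Col4a2, on opposite strands, lie 21 bases apart, and those of Col4a5 and Col4a6, also on opposite strands, 1343 bases apart. The ratio of Col6a1 to Col6a2 was 0.403 ± 0.0469 against 0.375 ± 0.0514 (SD, n = 3; exact permutation p = 0.5), whereas Col6a3 to Col6a2 was 0.0334 ± 0.00383 against 0.0466 ± 0.00568 (SD, n = 3; exact permutation p = 0.1), higher in every deletion library. The ratio of Col2a1 to Col3a1 was 4.59, 3.84 and 4.48 against 15.3, 14.6 and 9.01, and that of Col15a1 to Col18a1 was 0.00362 ± 0.00152 against 0.00715 ± 0.00234 (SD, n = 3), both without overlap. These are not trimer partners either, and the first again holds Col3a1.

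**Figure D4:**
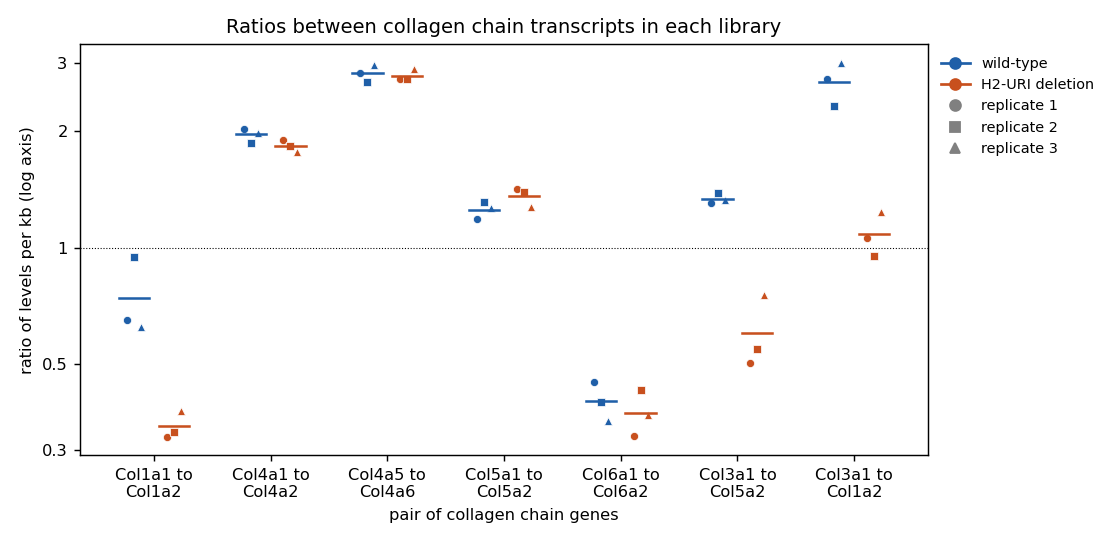
Ratio of levels per kilobase between pairs of collagen chain genes in each library, on a log axis; points are libraries, lines are group means and the dotted line marks equal levels. The ratios of Col1a1 to Col1a2 and of Col3a1 to Col5a2 and Col1a2 are lower in every deletion library, while those of the Col4a, Col5a and Col6a1 pairs overlap.

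The wider collagen pathway was represented by 62 of 73 listed genes, of which 3 fell and 6 rose in limma, against the 1.5% and 1.55% of all genes. At an unadjusted p under 0.05 there were 24, 10 lower and 14 higher, against the 21.4% of all genes. The median log2 fold change was 0.07, with 38 genes above 0 and 24 below. Among 21 genes of chain modification and folding 2 rose and 0 fell: Plod2, a lysyl hydroxylase that prepares crosslinks, with 2605, 2881 and 2705 against 3277, 3275 and 3574 normalized counts (log2 fold change 0.31, adjusted p = 0.0420, limma), and the prolyl hydroxylase gene P4ha2 (log2 fold change 0.39). Among 11 genes of propeptide processing and crosslinking, 1 rose, the procollagen protease gene Tll1 (log2 fold change 1.68).

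Of 9 collagen receptor genes 2 rose and 0 fell, the integrin gene Itga2 (log2 fold change 1.87) and Mrc1, a scavenger receptor that also binds collagen, with 102, 120 and 129 against 286, 236 and 224 normalized counts. Among 12 fibril-associated proteoglycans and adaptors 3 fell and 0 rose. Bgn, which encodes the fibril-binding proteoglycan biglycan, had 582, 487 and 512 against 297, 306 and 375 (log2 fold change −0.69, adjusted p = 0.0171, limma). Postn, the gene of periostin, which helps to assemble collagen fibrils in valve mesenchyme, had 259, 414 and 384 against 109, 117 and 227 (log2 fold change −1.27, adjusted p = 0.0412, limma). Nid1, the link between laminin and collagen IV, had a log2 fold change of −0.50. Of the 12, 4 had log2 fold changes below 0 and 8 above, with a median of 0.22. Nid2, Hspg2 and Fn1 were higher in every deletion library without passing (limma adjusted p = 0.0527, 0.0834 and 0.113). After the length and GC correction the log2 fold changes of Nid2, Hspg2 and Fn1 were 0.18, 0.08 and 0.15. Those of Bgn, Postn and Nid1 were −0.70, −1.34 and −0.56. The 12 summed to 86952 ± 4734 against 100035 ± 3765 normalized counts (SD, n = 3). Fn1 alone held a large part of this sum, with means of 44532 against 53839. Of 9 degradation genes 1 rose, the metalloproteinase inhibitor gene Timp3, with 1556, 2044 and 2076 against 2654, 2697 and 3102 (log2 fold change 0.58, adjusted p = 0.0279, limma).

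Marker lists of the cell types that a heart sample could hold are given beside these results. Cardiomyocyte markers, 8 of 8 measured, summed to 714635 to 831818 normalized counts in wild-type hearts and 760999 to 834636 in deletion hearts. Past the threshold were 0 in limma and edgeR and 1 in DESeq2, higher, where DESeq2 called 3.73% of all genes higher. At an unadjusted p under 0.05 there was 1 (21.4% of all genes). The groups did not overlap for 2 of the 8, Myh6 and Myh7, both higher, or 25%, against 27.4% of all genes. Over all genes, 1.5% were called lower and 1.55% higher in limma. Of 9 cushion mesenchyme markers 4 fell (Has2, Twist1, Msx1 and Postn) and 0 rose. The 9 summed to 5948 to 7458 against 4241 to 5310, or 73.1% of the wild-type mean, with Has2 means of 2662 against 1761. Snai2, Pdgfra, Sox9 and Prrx1 overlapped between groups, and the Sox9 mean was higher in the deletion hearts. Of 3 measured neural crest markers 1 fell, Ets1, which endothelium also expresses, while Crabp1 and Tfap2a overlapped between groups. The sum was 77.6% of the wild-type mean and was mostly Ets1. Its means were 2712 against 2105, and those of Ets1 alone 2230 against 1807. Sox10, Foxd3 and Tfap2b were not analysed here. Of 8 epicardial and proepicardial markers 1 rose, Krt19, with means of 1299 against 2351. The 8 summed to 2814 to 3781 against 4591 to 6170, or 162% of the wild-type mean. Wt1, Sema3d, Upk1b, Upk3b and Aldh1a2 overlapped between groups. Of 8 endocardial and endothelial markers 1 fell and 1 rose, with a sum at 101% of the wild-type mean. Of 8 measured pharyngeal and foregut markers, 4 hepatic and septum transversum markers and 7 primitive erythroid markers, 0 passed in limma. Over the 6 libraries the pharyngeal sum ran from 79.3% to 119% of the wild-type mean. The hepatic sum ran from 60.5% to 186% and the erythroid sum from 37.7% to 201%.

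Beside these, Col26a1 stood at 34.2%, Col3a1 at 41.9%, Col23a1 at 56.2% and Col8a1 at 59.5% of the wild-type mean. The part of the marker changes in the collagen results was not tested.

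**Figure D5:**
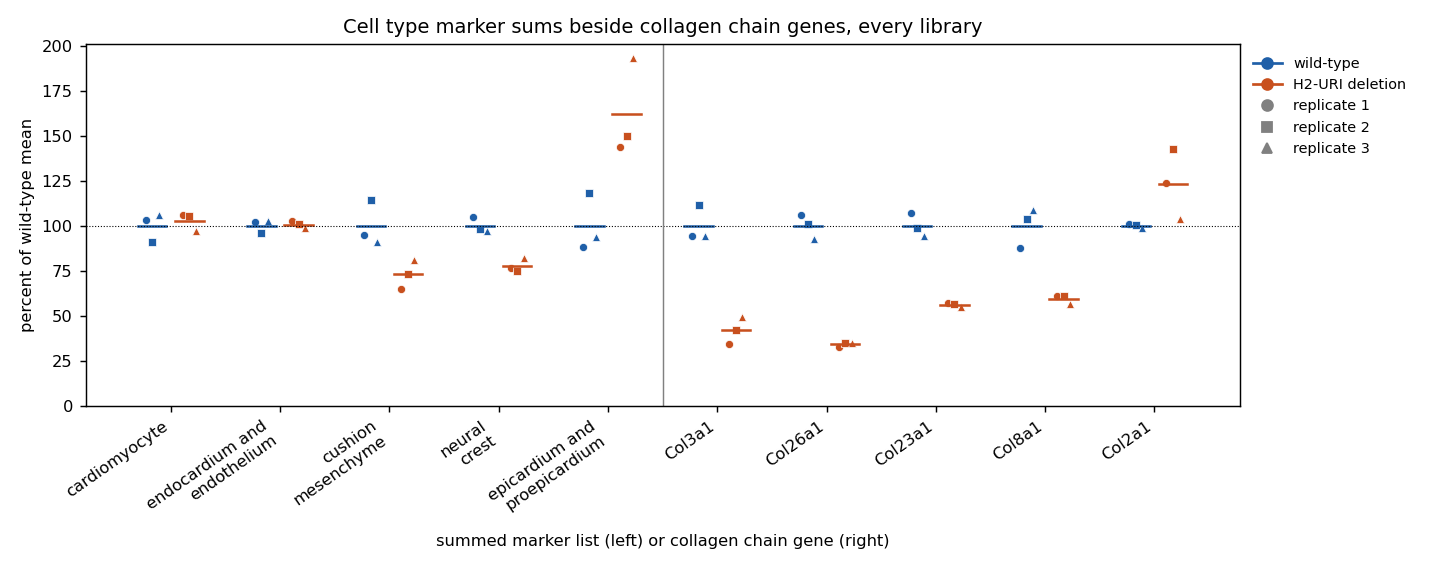
Summed levels of 5 marker lists (left) and levels of 5 collagen chain genes (right) in each library, as percent of the wild-type mean; points are libraries and lines are group means. The cushion mesenchyme sum and the neural crest sum, which is mostly Ets1, are lower and the epicardial sum is higher in every deletion library. The deletion means of Col3a1, Col26a1, Col23a1 and Col8a1 lie below those of the cushion mesenchyme and neural crest sums, and that of Col2a1 lies above them.

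Col26a1, Col3a1 and Col23a1 passed the threshold in all 22 alternatives that kept the groups, with highest adjusted p of 0.00497, 0.0259 and 0.0421. Col8a1 passed in 16 of them. In the replicate 3 pair, whose labels are not in conflict, the log2 ratios were −1.41 for Col26a1, −0.93 for Col3a1, −0.77 for Col23a1 and −0.94 for Col8a1. The groups did not overlap for these 4 genes, so a lower value in this pair was fixed and is no separate support. With the groups as recorded for the files, 0 collagen chain genes and 0 of all genes passed in limma.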

How the data were processed

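Total RNA of stage-matched hearts was made into stranded poly(A) libraries and sequenced from both ends, per the labels' protocols. The submitters' processing notes name STAR 2.7.9a, featureCounts (Subread 2.0.1), DESeq2 1.30.1 and the build GRCm39. For the annotation, strand setting and gene filter, nothing is stated there. Each deposited value is a signal for 1 gene and library, a normalized count, per the file headers. In each column 100% of values lay within 0.01 of a whole number of steps, 1 step standing for 1 read. edgeR and DESeq2 were run on the reads recovered this way.

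Groups were compared with limma-trend (version 3.58.1 under R 4.3.3), after log2 transformation of the normalized count + 1, for genes with a mean of at least 10, over all 6 libraries without covariates. Fold changes are deletion minus wild-type on this scale, which understates the change of low genes. Tests were two-sided, with a threshold of 0.05 after Benjamini-Hochberg adjustment over 15330 genes (14438 in DESeq2, which gave no adjusted p for the rest, and 14 for the chain ratios). The fit was tested on simulated data. Intervals are 95%, from the same fit. Alternatives covered the pseudocount, filter, scaling, variance model, edgeR 4.0.16, DESeq2 1.42.0, the 4 female libraries, blocking on replicate number, grouping by the files' recorded samples, each library left out, and a correction for transcript length and GC (natural splines, 4 degrees of freedom each, on the longest transcript in GENCODE M21, found for 96.9% of genes). M21 is on GRCm38, another build, so no gene coordinates are given from it.

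The rule for named genes took every member past the threshold, the 2 members of each class with the highest level per length, trimer partners of the called members, members without overlap between groups, and up to 6 called genes of each pathway list by smallest p. Other members are given to describe their class, and were named after their values were seen. The members and lists were chosen with earlier results of these data known.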

Additional observations from a re-analysis of the deposited data

How the results depend on the processing

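The count of collagen chain genes called lower was 4, and 3 to 5 with each library left out; the count called higher was 0, and 0 to 3 (1 without wild-type replicate 1 and 3 without wild-type replicate 2), and 4 in DESeq2. Under the recorded file assignment all counts were 0. For all genes, 230 lower and 237 higher became 61 to 695 and 42 to 466 with a library left out, 73 and 73 without an intensity trend, 600 and 539 in DESeq2, and 23 and 12 in the 4 female libraries. Higher calls were 393 at equal totals without haemoglobin, and 118 with a replicate block and the length and GC trend removed. For pathway genes, 3 lower and 6 higher became 1 to 4 and 3 to 8 with a library left out, 0 and 3 without an intensity trend, 7 and 12 in DESeq2 and 0 and 2 in the 4 female libraries, with 10 higher at equal totals and 5 lower after the trend was removed. The causes of these shifts were not tested, and some fits held fewer libraries.

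Replicate numbers did not pair the libraries: deviations from the group means correlated at −0.035, −0.12 and −0.14 between libraries of the same number, and no library correlated best with its own number. With a replicate block 110 genes were lower and 96 higher, and 3 collagen chain genes were lower (Col8a1 adjusted p = 0.0544).

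The recorded assignment puts replicates 1 and 2 of both groups into the other group, so it largely reverses the comparison. With the recorded assignment the log2 fold changes were 0.61 for Col26a1, 0.64 for Col3a1, 0.31 for Col23a1 and 0.11 for Col8a1, the opposite sign, with 0 past the threshold. Members not called also changed sign there: −0.45 for Col7a1, 0.20 for Col6a1, 0.68 for Col9a1, 0.34 for Col9a2, 0.077 for Col9a3, 0.10 for Col14a1, −0.34 for Col22a1, 0.78 for Col1a1, 0.53 for Col11a1, 0.012 for Col5a2, −0.10 for Col5a1, −0.028 for Col11a2, −0.24 for Col2a1, −0.11 for Col27a1, −0.065 for Col18a1, −0.14 for Col4a1, −0.18 for Col4a5, −0.18 for Col4a6, −0.12 for Col4a2, −0.41 for Col4a4, 0.025 for Col13a1 and −0.20 for Col25a1. Corrected for length and GC content, with or without the replicate block, signs changed for Col6a2 (−0.0087), Col5a1 (−0.15), Col1a2 (−0.069), Col11a2 (−0.0089), Col18a1 (−0.086) and Col4a1 (−1.7e-04). Col8a2 was −0.36 in edgeR, −0.34 in DESeq2 and −0.57 in the 4 female libraries, Col1a2 −0.11 in those libraries, and Col6a1 0.035 at equal totals. With a library left out, ranges crossed 0 for Col6a1 (−0.16 to 0.11), Col5a1 (−0.053 to 0.12), Col1a2 (−0.081 to 0.23), Col8a2 (−0.30 to 1.39) and Col11a1 (−0.56 to 0.17). The cause of the sign changes outside the recorded assignment was not tested.

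Of the 3 members with a mean under 50 normalized counts, Col8a2, with 1 wild-type library far above the others, had the widest 95% interval, which spanned 3.41 on the log2 scale.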

Other observations

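Wild-type replicate 2 held more transcript of several fibril collagens than the other wild-type libraries. Its level was 2.48 times the mean of wild-type replicates 1 and 3 for Col11a1, 2.17 times for Col1a1, 1.55 times for Col16a1, 1.47 times for Col12a1 and 1.46 times for Col1a2. For the scarce Col8a2 the ratio was 9.15. In all, 4 of the 34 collagen chain genes exceeded a ratio of 1.5, or 11.8%, against 4.17% of all genes. The summed cushion mesenchyme markers of that library stood at 114% of the wild-type mean and those of the epicardium at 118%, while the cardiomyocyte markers stood at 90.9%. Its primitive erythroid markers stood at 155%, but over the 6 libraries that sum ran from 37.7% to 201%. Its notochord and neural tube markers stood at 42.2%, beside 215% in wild-type replicate 1 and 42.6% in wild-type replicate 3. Among the fibril-associated genes, Lum, which encodes the proteoglycan lumican, had 28.4, 106 and 41.2 normalized counts across the wild-type hearts and 27.4, 7.43 and 10.8 across the deletion hearts (log2 fold change −1.85, adjusted p = 0.0965, limma). Adamts2, which removes the amino-terminal propeptide of fibrillar procollagens, had 60.2, 146 and 36.6 against 28.5, 33.4 and 37.8 and was also highest in wild-type replicate 2.

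The groups did not overlap for 29 of the 62 pathway genes, 9 lower and 20 higher, or 46.8%, against 27.4% of all genes. Some of those that did not pass the threshold are given here, chosen after their values were seen. One is Ctsk, the gene of the collagen-degrading protease cathepsin K, at 51.6 ± 8.57 against 20.8 ± 13.5 normalized counts (SD, n = 3), a log2 fold change of −1.45 with a limma adjusted p of 0.0870. Itga1, a receptor subunit for collagen IV, had 872 ± 130 against 1201 ± 128 (SD, n = 3), a log2 fold change of 0.47 with a limma adjusted p of 0.0656. Creb3l1, a transcription factor known to drive procollagen genes, had 338 ± 32.3 against 250 ± 17.4 (SD, n = 3), a log2 fold change of −0.44 with a limma adjusted p of 0.0704.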
